A study of Mus musculus with 45 samples.

Results

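The genes described here encode the proteasome, the protease complex that degrades proteins marked with ubiquitin, including its cytokine-inducible form, the immunoproteasome. They were chosen by name alone: protein-coding genes of the mouse GENCODE annotation whose symbol is Psma, Psmb, Psmc, Psmd, Psme, Psmf or Psmg followed by a number, plus Pomp and Adrm1. The rule found 52 of 22028 annotated protein-coding genes, and 4 pseudogenes of core subunits were left out. Of the 52, 51 encode proteasome components, activators, an inhibitor or assembly chaperones, and Psmc3ip, which encodes a meiotic recombination protein, matches by symbol only.

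The 45 samples came from C57BL/6 mice and fell into 7 groups, with no genetic change in any of them. Microglia, the resident immune cells of the brain, were sorted as CD11b high, CD45 intermediate cells from brain slices of neonatal pups kept in culture for 2 weeks. The slices then received medium only (n = 9), 50 ng/mL TNF (n = 11) or 20 ng/mL GM-CSF (n = 9) for 24 hours, and each library pooled microglia from several slices. Adult microglia were sorted with the same markers from mice aged 10 to 15 weeks, 24 hours after PBS (n = 4) or LPS at 1 mg/kg by intraperitoneal injection (n = 4), and whole brain tissue was taken from mice of that age without treatment (n = 4) or after the same LPS treatment (n = 4). The brain controls were not injected. The slice libraries came from 4 independent experiments. Their titles carry 4 codes (1A, 1B, 2A and 2B), each present in all 3 slice groups, and the sources used here do not say which library belongs to which experiment, pup or culture, so p-values measure the spread between libraries.

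The 20S core of the proteasome is a barrel of stacked rings. Its outer alpha rings hold the gate, and its inner beta rings carry the proteolytic sites on Psmb5, Psmb6 and Psmb7. The 19S regulatory particle caps the barrel, binds ubiquitin chains, unfolds the substrate with its Psmc ATPases and feeds it into the core, and chaperones such as Pomp and Psmg1 build the core. In cells exposed to interferon, newly built cores carry Psmb8, Psmb9 and Psmb10 in place of Psmb5, Psmb6 and Psmb7, and the PA28 activator of Psme1 and Psme2 can replace the 19S cap. That form of the complex is known for cutting peptides for display on MHC class I molecules and is abundant in immune cells.

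On the GRCm38 (mm10) assembly, Psmb8 (chr17:34197721-34201454, plus strand) and Psmb9 (chr17:34181987-34187764, minus strand) lie in the MHC region, where Psmb9 and the peptide transporter gene Tap1 start back to back on opposite strands. Psmb10 (chr8:105935735-105938444, minus strand) lies apart from them, and Psme1 (chr14:55578123-55581529, plus strand) and Psme2 (chr14:55587441-55591113, minus strand) are neighbours. Because these genes and the constitutive catalytic subunits moved differently in the comparisons that follow, the bases from 250 before to 50 after their start were searched on both strands for 4 motifs that regulators of proteasome genes are known to bind. RefSeq windows (GRCm38.p6) were used for 44 of the 52 genes, and the start meant here is the RefSeq one. For Psmb8 (34197945-34198244), Psmb9 (34187281-34187580) and Psme1 (55578244-55578543) the whole window lies inside the GENCODE gene coordinates given above. The ISRE-like motif GAAANNGAAA stood in 5 of the 44 and in 3.43% of all 32817 windows, the palindromic GAS motif TTCNNNGAA in 3 and in 8.29%, the antioxidant response element core TGACNNNGC in 7 and in 12.4%, and the kappaB motif in 6 and in 8.46%. The counts of members are per gene over all its windows, of which Psma6, Psmc2 and Psme2 have several, while the shares are per window. Matches of different motifs did not overlap in the windows of the 44 genes, and in Psma6 the kappaB motif matched both strands at the same position. Both constitutive catalytic genes with a window, Psmb5 and Psmb6, held the antioxidant response element core, for which the stretch upstream of the first exon is shown with the match in capitals. Psmb8 held a GAS match and Psme1 an ISRE-like match (on the minus strand), each shown with 10 bases on either side. Members of other classes held these motifs too. The antioxidant response element core also stood in Adrm1, Psmc6, Psmd9, Psmd12 and Psme4. The GAS motif also stood in Psmd2 and Psmg1, and the ISRE-like motif in Psmb3, Psmd4, Psmd9 and Psmg4. The windows of Psmb9, Psmb10 and Psme2 held none of the 4 letter patterns. That of Psmb9 does not reach its GENCODE start beside Tap1, so the bases at that start were not searched.
Psmb5 (chr14:54618023-54618245, minus strand): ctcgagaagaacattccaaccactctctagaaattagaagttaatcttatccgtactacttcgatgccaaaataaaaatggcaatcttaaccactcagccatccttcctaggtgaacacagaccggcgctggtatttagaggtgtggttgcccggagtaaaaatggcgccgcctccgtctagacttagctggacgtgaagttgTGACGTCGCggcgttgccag
Psmb6 (chr11:70525107-70525356, plus strand): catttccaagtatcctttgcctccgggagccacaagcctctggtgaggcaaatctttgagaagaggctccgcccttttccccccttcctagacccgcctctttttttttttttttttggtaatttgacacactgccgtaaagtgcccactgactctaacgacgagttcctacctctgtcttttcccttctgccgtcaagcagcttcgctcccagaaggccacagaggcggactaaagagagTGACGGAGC
Psmb8 (chr17:34198088-34198116, plus strand): tcctccgctgTTCCCAGAAgatgcccccc
Psme1 (chr14:55578493-55578522, plus strand): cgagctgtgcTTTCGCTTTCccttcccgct
A match is a description of letters and not evidence of a bound factor.

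Levels are given in CPM, the counts of a gene relative to the size of its library after scaling by trimmed mean of M-values (TMM) within each of the 3 data sets. Levels in slice microglia, adult microglia and brain tissue were scaled separately, so only differences within a data set were tested. Depth lay between 5973364 and 9165485 counts for slice microglia, between 11391564 and 14216005 for adult microglia, and between 8199863 and 10368578 for brain tissue. The 8 microglial markers summed to at least 9681 CPM in every sorted library, while 6 neuronal markers reached at most 12.1 CPM in slice and 1.79 CPM in adult microglia. In brain tissue the neuronal markers summed to between 5619 and 6149 CPM. The 4 oligodendrocyte markers summed to 59.2 to 136 CPM in medium, 38.9 to 152 in TNF and 49.9 to 118 in GM-CSF. In adult microglia these 4 summed to 34.1 to 48.0 CPM with PBS and 21.4 to 32.2 with LPS. Their part in the results on microglia was not tested. A gene was called when edgeR's quasi-likelihood test gave a Benjamini-Hochberg adjusted p under 0.05 over all genes tested and its fold change passed 1.5. Where groups are said not to overlap for a gene, this describes that gene only, since the share of all genes without overlap was not counted. All members except Psmb11, the thymus form of a core subunit, passed the low-count filter in both microglial data sets, and all except Psmb11 and Psma8, the testis form, passed it in brain tissue.

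In the control groups (medium, PBS and untreated), sorted microglia held transcripts of both immune and constitutive catalytic subunits, and brain tissue held mostly the constitutive ones. Per kilobase of the principal transcript, Psmb8 averaged 134 CPM in slice microglia in medium, against 64.3 for its counterpart Psmb5. In adult PBS microglia the levels per kilobase were 89.8 for Psmb8 and 77.8 for Psmb5. In untreated brain tissue they were 1.48 for Psmb8 and 76.3 for Psmb5. Psmb10 and Psmb7 stood at 61.9 and 51.2 in slice microglia, at 57.4 and 34.9 in adult microglia and at 16.5 and 79.8 in brain tissue. The third pair differed in order, because Psmb9 was below Psmb6 in all 3 data sets: 31.3 against 584 in slice microglia, 51.7 against 145 in adult microglia and 1.36 against 83.3 in brain tissue. Psmb6 had the highest level per kilobase of all 52 members in both control microglial groups, and Psmc5, an ATPase of the 19S base, had the highest in untreated brain tissue (96.9). These comparisons between genes rest on 1 annotated length per gene and on the whole-gene counts. All 52 members together summed to 6903 ± 524 CPM (SD, n = 9) in medium, 4001 ± 77.2 (n = 4) in PBS and 2926 ± 25.7 (n = 4) in untreated brain tissue.

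**Figure D1:**
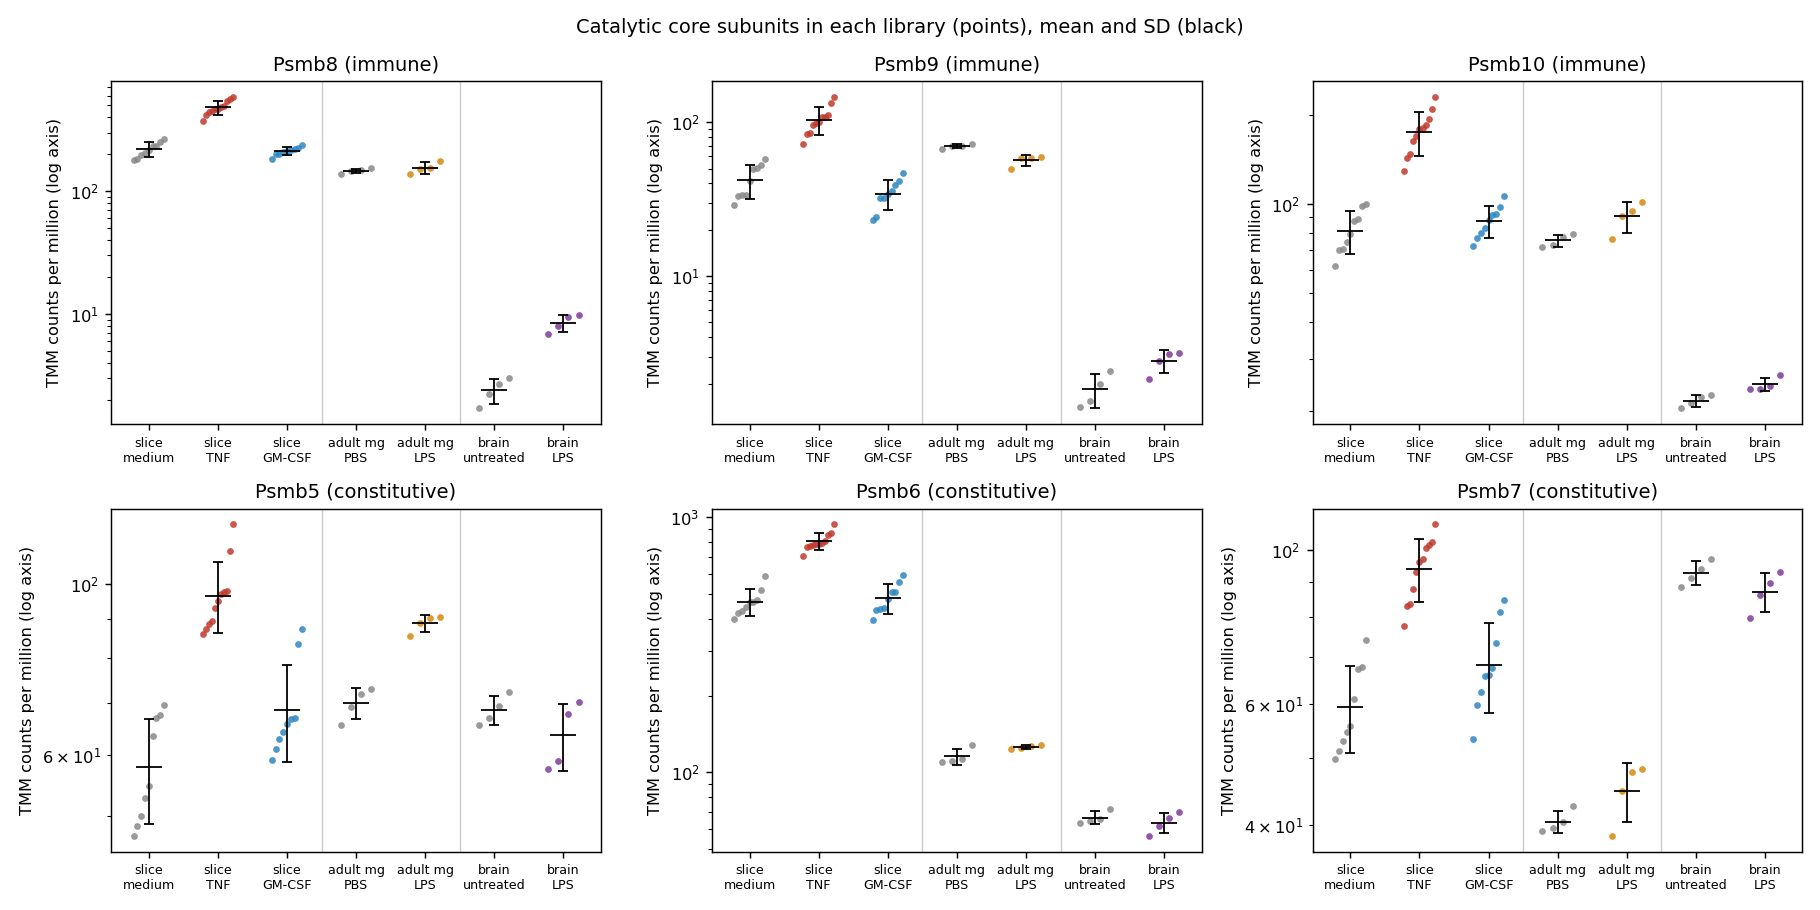
Level of the 3 immune (top) and 3 constitutive (bottom) catalytic subunits in each library, in CPM on a log axis. Points are libraries, black bars the mean and SD, and vertical lines separate the 3 data sets, which were scaled separately. The 11 TNF libraries lie above all 9 medium libraries for all 6 genes, and the brain libraries after LPS lie above the untreated ones for Psmb8 and Psmb10.

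TNF, a cytokine of inflammation that microglia both release and sense, raised the proteasome genes of slice microglia broadly, with the largest folds in PA28, the immune subunits and the chaperone Psmd10. All 3 immune catalytic subunits were called higher, with folds of 2.20 for Psmb8, 2.46 for Psmb9 and 2.16 for Psmb10. Both PA28 subunits were called, Psme1 with a fold of 2.00 and Psme2 with 2.74. Of the 14 other subunits of the standard core, 12 were called higher, with folds below those of the immune subunits. In all, 25 of the 51 members tested were called higher and 0 lower by edgeR (also 0 lower at an unadjusted p under 0.05 and by DESeq2), where 9.1% of the 11313 genes tested were called higher and 11.7% lower. Without the fold limit, 43 of 51 members passed the adjusted p and all 43 were higher, against 19.9% of all genes higher and 19.7% lower. The median log2 fold change of the members was 0.54, and that of all genes was -0.03. Within the samples whose titles carry the codes 1A and 1B, 25 members were called, and within those with 2A and 2B, 22.

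Psmb8, the immune counterpart of the chymotrypsin-like subunit, had a lowest, median and highest level of 181, 216 and 267 CPM in medium and 374, 469 and 588 CPM in TNF. No TNF library overlapped a medium library (log2 fold change 1.14, SE 0.08, adjusted p = 3.05e-14). Psmb9 rose from 42.3 ± 10.5 to 104 ± 21.7 CPM (SD, n = 9 and 11), from a range of 29.1 to 57.8 to one of 72.1 to 147 (log2 fold change 1.30, SE 0.14, adjusted p = 1.50e-09). Psmb10, the counterpart of the trypsin-like subunit, rose from 81.1 ± 13.4 to 176 ± 29.7 CPM with ranges of 61.6 to 100.1 and 129 to 231 (log2 fold change 1.11, SE 0.10, adjusted p = 1.66e-11). All 11 TNF libraries were above all 9 medium libraries for each of the 3 genes. Psmb9 shares 212 exon bases with Tap1 on the opposite strand and Psmb8 shares 498 with the antisense gene Gm20496, and since the strandedness of the counting is not given in the sources used here, reads of such partners cannot be told apart.

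The constitutive subunits that these replace rose as well. Psmb5 went from 57.8 ± 8.97 to 96.4 ± 10.2 CPM, Psmb6, the caspase-like subunit, from 466 ± 56.2 to 802 ± 61.7, and Psmb7 from 59.4 ± 8.56 to 93.9 ± 9.79. Their log2 fold changes were 0.74 (SE 0.09), 0.78 (SE 0.07) and 0.66 (SE 0.09), all called and with no overlap between the groups. Psmb7 shares exon bases with Nek6 on the opposite strand. Among the alpha subunits, which form the gate, 6 of 7 were called, from 0.63 for Psma3 to 0.86 for Psma6, and Psma1 passed the adjusted p at 0.22. Of the 4 structural beta subunits, Psmb2, Psmb3 and Psmb4 were called and Psmb1 passed the adjusted p only (0.40).

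The regulatory particle changed by smaller folds than the core, although the difference between the classes was not tested. All 18 subunits of the 19S particle passed the adjusted p and were higher, yet 6 passed the fold limit, and their median log2 fold change was 0.42, against 0.70 for the 14 core subunits and 1.14 for the immune ones. The 6 were the ATPases Psmc4 (0.62) and Psmc6 (0.59), the lid subunits Psmd3 (0.60), Psmd7 (0.68) and Psmd12 (0.73), and Psmd14 (0.73), the deubiquitinase of the lid. Of these, Psmc6 was called in 23 and Psmd3 in 22 of 31 alternatives. Psmd14 had a lowest, median and highest level of 106, 124 and 153 CPM in medium and 174, 217 and 244 in TNF. Among the 3 chaperones of the 19S base, Psmd10 (gankyrin) rose most (log2 fold change 1.25, SE 0.11, adjusted p = 1.30e-11), from 36.4, 51.7 and 73.1 CPM in medium to 89.4, 126 and 157 in TNF without overlap, while Psmd5 (0.31) passed the adjusted p only and Psmd9 (0.24) did not.

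Psme2 had the highest log2 fold change of the 51 members in TNF. Its lowest, median and highest levels were 150.0, 173 and 215 CPM in medium and 399.6, 504 and 616 CPM in TNF (log2 fold change 1.46, SE 0.08, adjusted p = 9.69e-17). Psme1, its partner in the PA28 ring, went from 128, 158 and 196 to 259.7, 299 and 399.8 CPM (log2 fold change 1.00, SE 0.08, adjusted p = 4.40e-13). Psme3, which forms the nuclear PA28 gamma ring, passed the adjusted p at 0.35 (SE 0.06), and Psme4 (PA200) had a log2 fold change of 0.26 (95% interval -0.07 to 0.60, adjusted p = 0.234). The inhibitor Psmf1 (PI31) passed the adjusted p at 0.30. Of the 5 chaperones that assemble the core, Psmg4 passed the adjusted p at 0.52, and the lowest value was that of Pomp at 0.08, from 206 ± 27.8 to 218 ± 29 CPM (adjusted p = 0.424). The TNF libraries held 9681 to 12565 CPM of the 8 microglial markers, against 17066 to 23983 in medium, and up to 102 CPM of 4 neutrophil markers, against up to 13.7 in medium, with the neutrophil marker Ly6g at 0 in every library of both groups. The 4 markers of border macrophages and monocytes summed to 9.99 to 56.7 CPM in TNF and 50.0 to 152 in medium. Their part in these changes was not tested, and leaving out any 1 library left 24 to 25 members called.

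**Figure D2:**
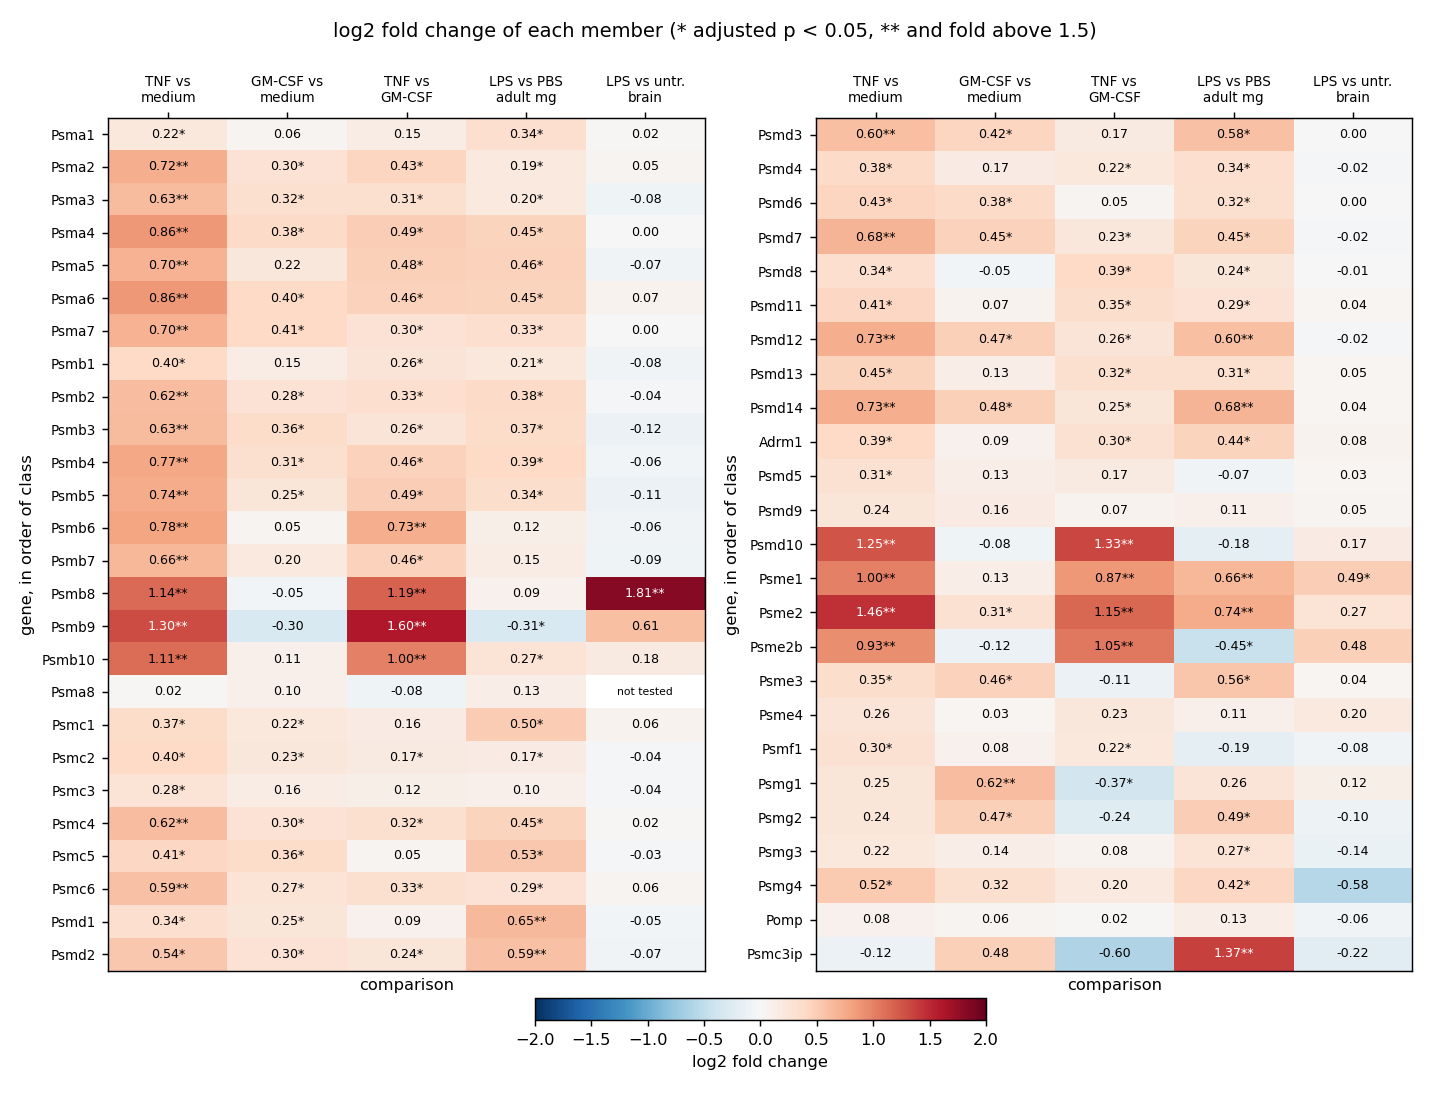
Log2 fold change of the 51 members that passed the low-count filter in at least 1 data set (rows, in order of class), in 5 comparisons (columns), on a colour scale from -2 to 2. 1 asterisk marks an adjusted p under 0.05 and 2 mark a call with a fold above 1.5; the TNF column is positive in 50 of 51 rows, while Psmb8 and Psme1 are the only rows with an asterisk in the brain column.

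GM-CSF, a growth factor of myeloid cells, raised part of the standard core and of the 19S particle by less than 1.5-fold, and no immune subunit passed the test. The medium libraries are the same ones that served TNF. Of the 51 members tested, 1 was called, Psmg1, a chaperone that pairs with Psmg2 in building the alpha ring, where 4.84% of the 11313 genes were called higher and 5.96% lower. Psmg1 had a lowest, median and highest level of 14.4, 22.7 and 29.2 CPM in medium and 25.3, 32.1 and 42.3 CPM in GM-CSF, and 7 of 9 GM-CSF libraries were above all medium libraries (log2 fold change 0.62, SE 0.14, adjusted p = 0.000658). Its fold of 1.54 is just past the limit and fell below it when GM-CSF replicate 5, medium replicate 4 or medium replicate 8 was left out, with log2 fold changes of 0.58, 0.58 and 0.56. Without the fold limit, 25 of 51 members passed the adjusted p and all 25 were higher, against 12.1% of all genes higher and 13.4% lower. The median log2 fold change of the members was 0.23, and that of all genes was -0.04. When libraries were scaled by total counts the median of all genes moved to 0.07, 34 members passed the adjusted p, and the share of calls over all genes that were higher went from 44.8% to 63.9%. Within the codes 1A and 1B 3 members were called and within 2A and 2B 1.

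Most of the 25 members belong to the standard proteasome. They held 9 of the 14 core subunits, from 0.25 for Psmb5 to 0.41 for Psma7, and 12 of the 18 subunits of the 19S particle, up to 0.48 for Psmd14 (SE 0.08), which went from 128 ± 17.0 to 178 ± 19.6 CPM. The core chaperones Psmg1 and Psmg2 (0.47) were among them, and so were Psme2 (0.31) and Psme3 (0.46). Psme3 had a lowest, median and highest level of 143, 160.0 and 184 CPM in medium and 193, 221 and 249 in GM-CSF, with all 9 GM-CSF libraries above all medium libraries (log2 fold change 0.46, SE 0.06, adjusted p = 7.80e-07). The groups overlapped for each of the 3 immune subunits, of which 0 passed the adjusted p in edgeR, DESeq2 or limma-voom and 1, Psmb9, was lower at an unadjusted p under 0.05. Psmb8 averaged 212 ± 16.1 CPM in GM-CSF against 219 ± 30.6 in medium (log2 fold change -0.05, 95% interval -0.21 to 0.11, adjusted p = 0.731), a value whose sign turned with total counts (0.06) and within the codes 1A and 1B (0.16). Psmb9 averaged 34.3 ± 7.59 against 42.3 ± 10.5 (log2 fold change -0.30, 95% interval -0.59 to -0.02, adjusted p = 0.134), and Psmb10 87.5 ± 10.8 against 81.1 ± 13.4 (log2 fold change 0.11, 95% interval -0.09 to 0.31). Of the remaining key members, Psmb6 (0.05), Psmb7 (0.20), Psme1 (0.13), Psme4 (0.03) and Psmd10 (-0.08) did not pass the adjusted p. The 8 microglial markers summed to 12151 to 13722 CPM in the GM-CSF libraries, which is below the medium range given above. The 5 astrocyte markers summed to 37.97 to 74.3 CPM in GM-CSF, 24.4 to 91.3 in TNF and 65.2 to 117 in medium, the 4 neutrophil markers to 1.08 to 34.5 CPM in GM-CSF (with Ly6g and Mpo at 0 in every library), and the 4 markers of border macrophages and monocytes to 83.9 to 202. Their part in the GM-CSF result was not tested.

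Set directly against GM-CSF, TNF gave higher levels of 8 called members, where 8.25% of all genes tested were called higher and 7.96% lower. They were Psmb8 (1.19), Psmb9 (1.6), Psmb10 (1.00), Psmb6 (0.73), Psme1 (0.87), Psme2 (1.15), Psme2b (1.05) and Psmd10 (1.33). For each of these 8 genes all 11 TNF libraries were above all 9 GM-CSF libraries, and the share of all genes so separated was not counted. Psmb9 differed most, with a lowest, median and highest level of 23.2, 33.9 and 46.7 CPM in GM-CSF and 72.1, 101 and 147 in TNF (SE 0.14, adjusted p = 1.92e-11). Psmb5 (0.49) and Psmb7 (0.46) passed the adjusted p only. In edgeR 1 member, Psmg1, passed the adjusted p and was lower in TNF (-0.37, SE 0.13, adjusted p = 0.0253), and Psme3 (-0.11, 95% interval -0.23 to 0.01) and Psme4 (0.23, 95% interval -0.10 to 0.57) did not pass. Psmc3ip, no part of the proteasome, was at -0.60 and did not pass in edgeR (adjusted p = 0.0655), but was called lower by limma-voom (-0.61) and in 8 of 31 alternatives in all. This contrast depends on the scaling: when libraries were scaled by total counts the median of all genes moved from -0.02 to -0.19, 18 members instead of 33 passed the adjusted p and were higher and 4 instead of 1 were lower, and the median of the 19S ATPases moved from 0.17 to -0.01, while the immune subunits stayed called. The split of calls over all genes moved with it, from 50.9% higher to 31.4% higher.

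**Figure D3:**
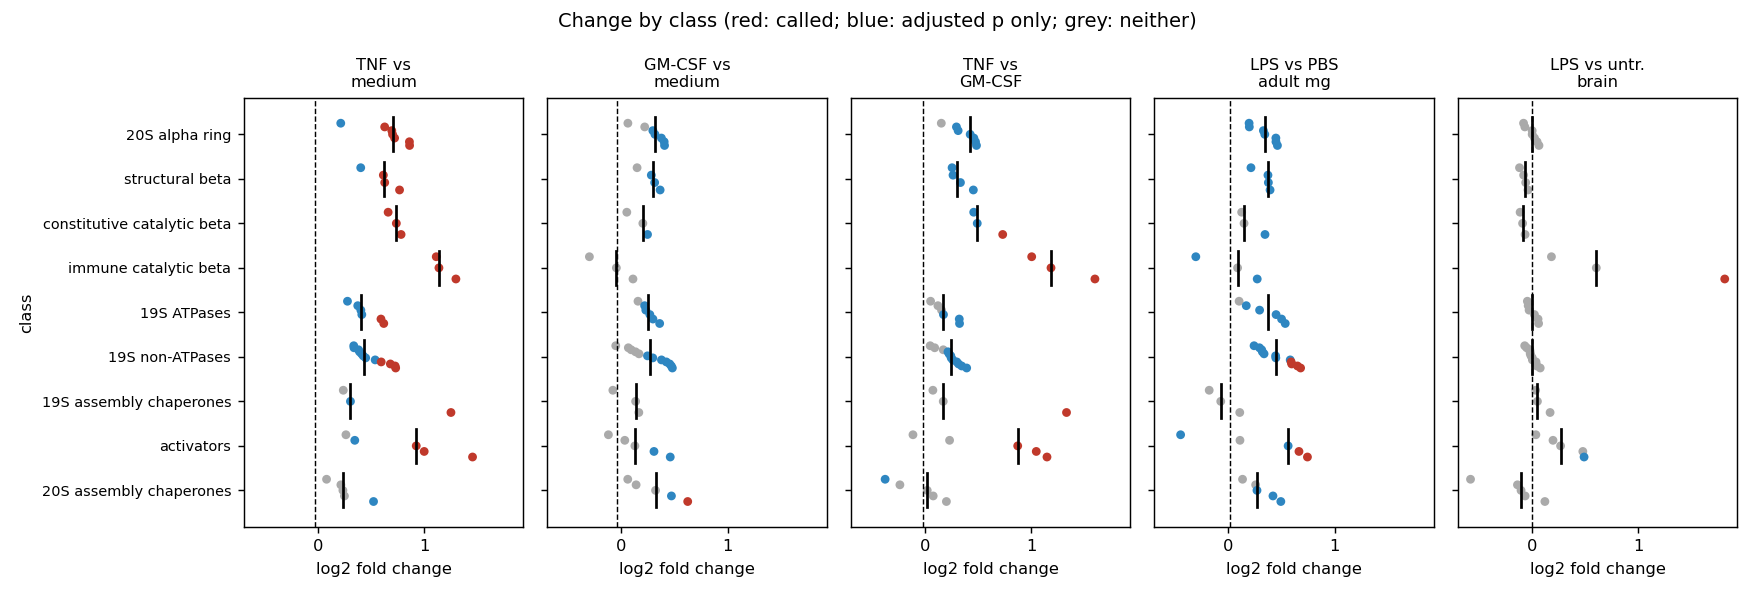
Log2 fold change of each member (points) by class (rows) in the 5 comparisons (panels), with the class median as a black bar and the median of all genes tested as a dashed line. In the TNF panel the immune subunits (median 1.14) and activators (0.93) lie to the right of the 19S ATPases (0.41), and in the brain panel the medians of the core and 19S classes lie between -0.09 and 0.00.

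LPS is a component of the bacterial outer membrane that is detected through Toll-like receptor 4. In adult microglia 24 hours after LPS, PA28 and most subunits of the 19S particle and of the standard core rose. The immune subunits did not move together. Median log2 fold changes were 0.44 for the 18 subunits of the 19S particle and 0.34 for the 14 core subunits. The difference between these classes was not tested. Of the 51 members tested, 7 were called higher and 0 lower by edgeR (2 were lower by the adjusted p alone and 3 at an unadjusted p under 0.05, and DESeq2 called 6 higher and 0 lower), where 14.4% of the 12987 genes tested were called higher and 13.0% lower. Without the fold limit 37 members were higher and 2 lower, against 26.7% and 24.9% of all genes. The median log2 fold change was 0.33 over the members and 0.01 over all genes. The 4 libraries with LPS held 38491 to 43207 CPM of the microglial markers against 52648 to 59007 with PBS, 145 to 182 against 254 to 279 CPM of 5 astrocyte markers, 10.1 to 13.7 against 28.9 to 36.2 CPM of 4 endothelial markers with Cldn5 at 0 in every library, and 1.61 to 4.73 against 15.5 to 37.1 CPM of 4 neutrophil markers. Their part in the results on adult microglia was not tested.

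Psmb8 did not differ detectably between the groups. Its 4 PBS libraries stood at 137, 146, 149 and 153 CPM and its 4 LPS libraries at 138, 151, 155 and 177 CPM, so that the groups overlapped (log2 fold change 0.09, 95% interval -0.07 to 0.24, adjusted p = 0.392). Psmb9 was lower with LPS in every library, at 67.2, 69.9, 69.97 and 72.3 CPM with PBS and 49.8, 58.3, 58.6 and 59.0 CPM with LPS (log2 fold change -0.31, SE 0.07, adjusted p = 0.00412), a change that passed the adjusted p but not the fold limit. Psmb10 was at 71.7, 72.8, 77.6 and 79.0 CPM with PBS and 75.8, 91.2, 94.4 and 102 CPM with LPS, with 3 of 4 LPS libraries above all PBS libraries (log2 fold change 0.27, SE 0.09, adjusted p = 0.0216). Of the constitutive counterparts, Psmb5 rose from 65.7, 69.2, 72.0 and 72.9 CPM to 85.6, 88.9, 90.3 and 90.4 CPM (log2 fold change 0.34, SE 0.06, adjusted p = 0.000705), without overlap. Psmb6 (0.12, 95% interval 0.00 to 0.25) and Psmb7 (0.15, 95% interval -0.02 to 0.32) did not pass the adjusted p.

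Apart from Psmc3ip, the called members belong to the 19S particle and PA28. With Psmc3ip they are 7 of 51, a share near the 14.4% of all genes called higher. Psmd1 and Psmd2, the large scaffold subunits of the base, had log2 fold changes of 0.65 (SE 0.08) and 0.59 (SE 0.07), and Psmd12 and Psmd14 of the lid had 0.60 (SE 0.07) and 0.68 (SE 0.09). Psmd14 stood at 49.0, 52.7, 59.7 and 61.0 CPM with PBS and 79.9, 91.3, 92.1 and 93.0 CPM with LPS. Psmd1 stood at 122, 129, 135 and 137 CPM with PBS and 182, 202, 209 and 227 CPM with LPS. For all 4 genes, which were named because they were called, each LPS library was above each PBS library. The share of all genes so separated was not counted. Psmd2 and Psmd12 lie just past the fold limit: over 15 alternatives the call of Psmd2 held in 6, with DESeq2 among those that lost it, and that of Psmd12 in 11, with lowest log2 fold changes of 0.55 and 0.57. All 12 non-ATPase subunits passed the adjusted p and were higher, with a median of 0.44, and so did 5 of the 6 ATPases, the exception being Psmc3 (0.10). All 7 alpha subunits and all 4 structural beta subunits passed the adjusted p as well, with medians of 0.34 and 0.37. Near the threshold, Psmb1 kept an adjusted p under 0.05 in 6 of the 15 alternatives, Psma3 in 9, Psma2 in 13 and the ATPase Psmc2 in 5.

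Psme1 was at 115, 117, 118 and 124 CPM with PBS and 159.9, 181, 186 and 222 CPM with LPS (log2 fold change 0.66, SE 0.09, adjusted p = 8.62e-05), and without LPS replicate 1 its log2 fold change was 0.56, under the fold limit. Psme2 was at 77.3, 82.5, 83.3 and 85.5 CPM with PBS and 113, 142, 146 and 149 CPM with LPS (log2 fold change 0.74, SE 0.09, adjusted p = 3.01e-05). Psme3 passed the adjusted p at 0.56 and Psme4 did not (0.11). The core chaperones Psmg2 (0.49), Psmg3 (0.27) and Psmg4 (0.42) passed the adjusted p, whereas Pomp (0.13), the inhibitor Psmf1 (-0.19) and the base chaperones Psmd5 (-0.07), Psmd9 (0.11) and Psmd10 (-0.18) did not. Over the 15 alternatives Psmg3 passed in 6 and Psmg4 and Psmb10 in 11 each.

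In whole brain tissue after LPS Psmb8 and Psme1 rose and no subunit of the standard proteasome passed the test. Psmb8 was the 1 called member of 50 tested, where 2.63% of the 15083 genes tested were called higher and 0.55% lower. Psme1 also passed the adjusted p, which made 2 of 50 members higher, against 6.06% of all genes higher and 4.1% lower. The 4 untreated libraries held 1.71, 2.23, 2.71 and 2.99 CPM of Psmb8 and the 4 LPS libraries held 6.84, 8, 9.41 and 9.77 CPM, which corresponds to 17 to 29 and 65 to 84 counts per library. The groups did not overlap (log2 fold change 1.81, SE 0.19, adjusted p = 1.78e-05). Psmb9 was lower still, at 1.40, 1.55, 1.98 and 2.42 CPM without treatment and 2.13, 2.82, 3.14 and 3.16 CPM with LPS, or 14 to 25 and 19 to 30 counts. Its log2 fold change of 0.61 had a 95% interval of 0.13 to 1.08 and did not pass the adjusted p (0.140), so a rise was not detectable at this depth after adjustment over all genes. Psmb10 was at 20.3, 21.1, 22.3 and 22.6 CPM without treatment and at 23.6, 23.8, 24.3 and 26.4 CPM with LPS, where the groups did not overlap and the log2 fold change of 0.18 did not pass the adjusted p (0.142).

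Psme1 stood at 20.1, 20.3, 21.9 and 22 CPM in untreated tissue and at 28.5, 28.9, 29.1 and 32.0 CPM after LPS (log2 fold change 0.49, SE 0.07, adjusted p = 0.000396), again without overlap. Psme2 stood at 14.2, 15.0, 15.1 and 16.3 CPM and at 15.9, 16, 18 and 23.2 CPM, with overlap (log2 fold change 0.27, 95% interval 0.04 to 0.50, adjusted p = 0.169). Psme4, at 63.4 to 68.8 CPM without and 71.7 to 86.8 CPM with treatment, had a log2 fold change of 0.20 (adjusted p = 0.0567), and Psme3 one of 0.04. The log2 fold changes of the 14 core subunits lay between -0.12 (Psmb3) and 0.07 (Psma6), those of the 18 subunits of the 19S particle between -0.07 (Psmd2) and 0.08 (Adrm1, a ubiquitin receptor), and 0 of these 32 passed the adjusted p in edgeR (0 at an unadjusted p under 0.05). Psmb5 (-0.11, 95% interval -0.24 to 0.02), Psmb6 (-0.06, -0.20 to 0.07) and Psmb7 (-0.09, -0.19 to 0.02) were among them. The median over the members was 0.00, equal at this rounding to that of all genes. In the same libraries the microglial markers summed to 265 to 300.4 CPM without and 233 to 398 CPM with LPS, the endothelial markers to 125 to 144 and 139.8 to 199, the astrocyte markers to 1662 to 1806 and 1882 to 2163, the oligodendrocyte markers to 5425 to 5949 and 4254 to 4955, 3 neutrophil markers to 0.388 to 0.929 and 2.77 to 6.39, 4 markers of border macrophages and monocytes to 1.65 to 2.50 and 3.01 to 3.92 (with Mrc1 at 0 in every library), and 6 T and NK cell markers to at most 0.448. Their part in the result was not tested, and in such a tissue a change in the number of cells of a type and a change in RNA per cell cannot be told apart.

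For 9 of the 51 members the LPS effect was called different between adult microglia and brain tissue, past the adjusted p and the fold limit. This is the test of the difference itself, fitted over both data sets. The value tested is signed: the log2 fold change in microglia minus that in tissue. Of the 16676 genes tested, 9.1% had a higher log2 fold change in microglia by that call and 10.6% a lower one. The 9 members are a share near that of all genes called in either direction. Psmb8 (-1.74, SE 0.19, adjusted p = 8.76e-07) and Psmb9 (-0.92, SE 0.20, adjusted p = 0.00155) had the lower log2 fold change in microglia. Psmd1 (0.69), Psmd2 (0.65), Psmd12 (0.60), Psmd14 (0.63), Psmg2 (0.59), Psmg4 (0.99) and Psmc3ip (1.57) had the higher. For some of them, among them Psmb9 and Psmg4, the effects in microglia and tissue had opposite signs. DESeq2 called 5 higher and 3 lower, without Psmd12 and Psmg2 and with the PA28-like Psme2b (-0.98). By limma-voom 6 were higher and 2 lower, without Psmg2. Over 23 alternatives the call of Psmg2 held in 12 and that of Psmd12 in 17. Psmg4 was at 6.52, 7.16, 7.61 and 7.63 CPM with PBS and 9.04, 9.06, 9.92 and 10.6 CPM with LPS in microglia, and at 2.92, 2.99, 4.01 and 4.36 CPM without treatment and 1.58, 2.47, 2.77 and 2.80 CPM with LPS in tissue, where its counts were as low as 15. Without the fold limit 30 members had a higher log2 fold change in microglia and 2 a lower one, against 14.5% and 16.3% of all genes. For Psme1 (0.16, 95% interval -0.07 to 0.40) and Psmb10 (0.08, 95% interval -0.15 to 0.30) a difference was not detected. The data sets differ also in their controls (PBS against no injection), library kit and input, which cannot be told apart from the tissue.

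**Figure D4:**
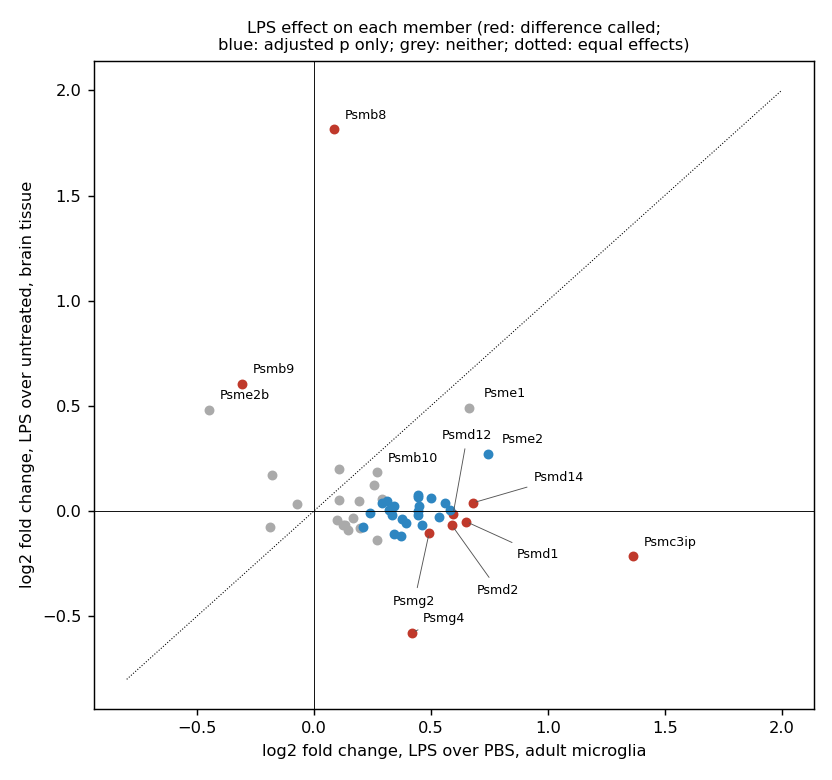
Log2 fold change after LPS of each of the 50 members tested in both data sets, in adult microglia (x axis) and in brain tissue (y axis); the dotted line marks equal effects and colours mark the test of the difference. Psmb8 lies at 0.09 and 1.81, far above the line, and Psmd14 lies at 0.68 and 0.04, below it.

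Whether the immune subunits moved relative to the constitutive ones they replace was measured within each library as the log2 ratio of their counts, which does not depend on the scaling between libraries. The 15 differences of these ratios were tested with exact two-sided permutation tests over samples and adjusted over the 15. TNF raised all 3 ratios against medium. Psmb8 over Psmb5 went from 1.92 ± 0.13 to 2.31 ± 0.21 (SD, n = 9 and 11), a difference of 0.39 (SE 0.08, exact p = 8.34e-05, adjusted p = 0.000250). Psmb9 over Psmb6 went from -3.49 ± 0.32 to -2.97 ± 0.27, a difference of 0.52 (SE 0.13, exact p = 0.00114, adjusted p = 0.00245), and Psmb10 over Psmb7 from 0.45 ± 0.13 to 0.89 ± 0.17, a difference of 0.45 (SE 0.07, exact p = 1.19e-05, adjusted p = 5.95e-05). For the third ratio all 11 TNF libraries were above all medium libraries, while the ranges of the other ratios overlapped, and its p is the smallest that 11 against 9 samples can give. GM-CSF moved 2 of them the other way: Psmb8 over Psmb5 fell by 0.29 to 1.63 ± 0.15 (SE 0.07, exact p = 0.000535, adjusted p = 0.00134) and Psmb9 over Psmb6 fell by 0.34 to -3.83 ± 0.23 (SE 0.13, exact p = 0.0165, adjusted p = 0.0310). Psmb10 over Psmb7 was 0.36 ± 0.17 in GM-CSF, a difference of -0.08 (SE 0.07, exact p = 0.259, adjusted p = 0.277). Within the samples whose titles carry the codes 1A and 1B, the difference of the Psmb9 ratio for GM-CSF was -0.13 (exact p = 0.457).

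Between TNF and GM-CSF the 3 ratios differed by 0.68 (SE 0.08), 0.86 (SE 0.11) and 0.53 (SE 0.08). In adult microglia LPS lowered Psmb8 over Psmb5 from 1.06 ± 0.03 to 0.80 ± 0.16 (SD, n = 4 and 4), a difference of -0.26 (SE 0.08, exact p = 0.0286, adjusted p = 0.0357), and Psmb9 over Psmb6 from -0.72 ± 0.11 to -1.16 ± 0.14, a difference of -0.44 (SE 0.09, exact p = 0.0286, adjusted p = 0.0357). In both cases the 4 LPS libraries lay below the 4 PBS libraries. For Psmb10 over Psmb7 the difference was 0.12 (SE 0.14, exact p = 0.543, adjusted p = 0.543) with overlapping groups. In brain tissue LPS raised Psmb8 over Psmb5 from -4.83 ± 0.34 to -2.90 ± 0.23, a difference of 1.93 (SE 0.21, exact p = 0.0286, adjusted p = 0.0357), and Psmb10 over Psmb7 by 0.27 (SE 0.04, exact p = 0.0286, adjusted p = 0.0357), both without overlap, while Psmb9 over Psmb6 differed by 0.68 (SE 0.23, exact p = 0.0571, adjusted p = 0.0659). With 4 samples against 4 the smallest p this test can give is 0.0286.

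**Figure D5:**
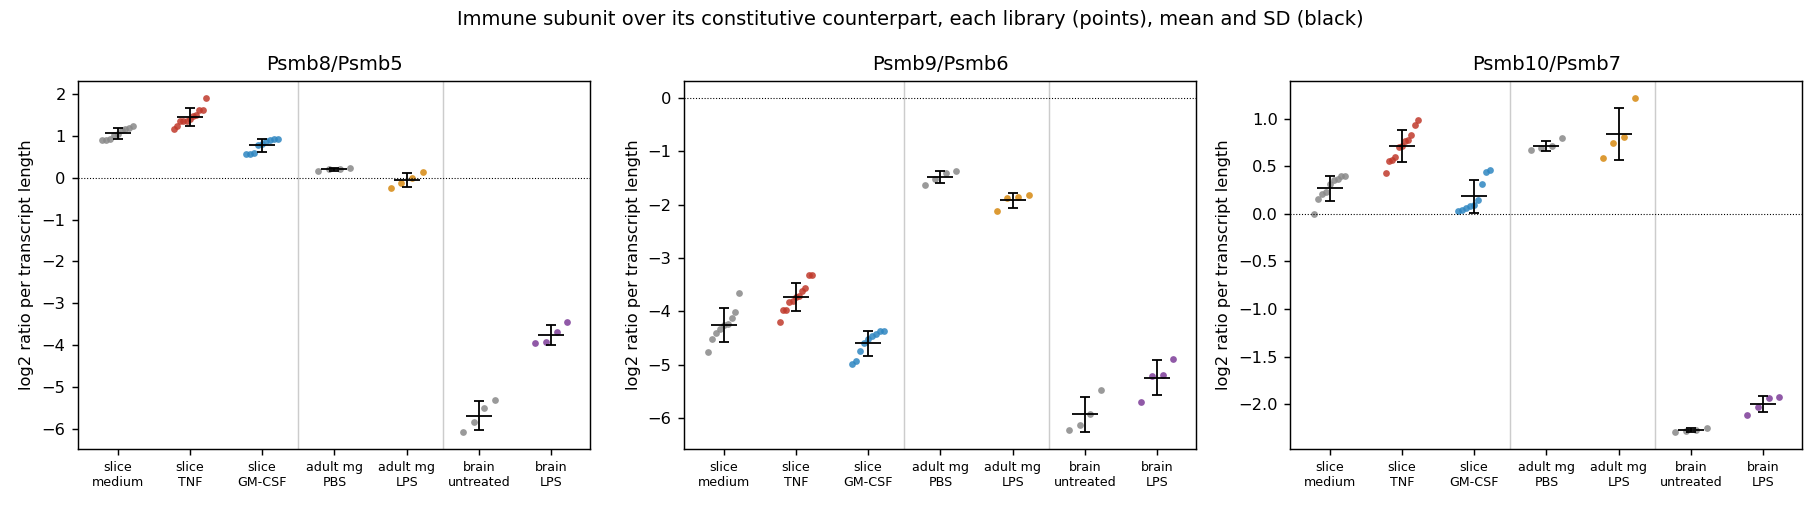
Log2 ratio of each immune subunit to its constitutive counterpart per transcript length, in each library (points), with mean and SD (black) and a dotted line at equal levels. The TNF mean lies above the medium and GM-CSF means in all 3 panels, and for Psmb8 and Psmb10 both brain groups lie below every microglial library.

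Proteasome products reach MHC class I through a small group of transport, trimming and loading genes. Of these 9 genes, 3 were called higher with TNF: Tap1 (1.84), which pumps peptides into the endoplasmic reticulum, Tapbp (0.96) and Tapbpl (0.85). Tap2 (0.58) and B2m (0.54) passed the adjusted p and were higher, and Canx (-0.21) and Pdia3 (-0.13), chaperones of class I folding, passed it and were lower. With GM-CSF 1 was called lower, Tapbp (-0.64), and Tap1 (-0.45), Tap2 (-0.35) and B2m (-0.50) passed the adjusted p and were lower. In adult microglia after LPS 4 were called higher, Calr (1.19), Pdia3 (0.96), Tap1 (0.99) and Erap1 (0.71). In brain tissue 5 were called higher, Tap1 (1.74), B2m (1.10), Tap2 (0.91), Tapbp (0.68) and Erap1 (0.64). Over all genes 9.1% were called higher with TNF and 5.96% lower with GM-CSF. After LPS 14.4% were called higher in adult microglia and 2.63% in brain tissue. Tap1, which starts beside Psmb9, thus had log2 fold changes of 1.84, -0.45, 0.99 and 1.74 in the 4 treatments, where Psmb9 had 1.30, -0.30, -0.31 and 0.61. In adult microglia the signs of the neighbours were opposite.

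Among regulators known to act on proteasome genes, those called higher with TNF included Nlrc5 (2.37), Irf1 (1.35) and Nfe2l1 (0.88), the last of which drives constitutive subunits. With GM-CSF Irf1 was called lower (-0.78). In adult microglia after LPS the genes called higher included Nlrc5 (1.89), Nfe2l1 (0.78) and Stat3 (0.76). In brain tissue they included Nlrc5 (2.50), Irf1 (0.72) and Irf8 (0.68), and Nfe2l1 was at -0.07 (adjusted p = 0.279). The effect of LPS on Nfe2l1 differed between adult microglia and brain tissue by 0.85 (SE 0.13, adjusted p = 5.21e-05). Of the genes of the ubiquitin-like ISG15 system, all 5 tested were called higher with TNF, led by Isg15 (4.42) and Usp18 (4.33). With GM-CSF 4 of 5 were called lower, and after LPS 3 of 5 in adult microglia and 4 of 5 in brain tissue were called higher. The shares of all genes called are those given with the transport genes.

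Of 23 genes for ubiquitin and for proteins that dock on the proteasome, 21 were tested in microglia. With TNF 1 was called, against 9.1% of all genes called higher. It was Sem1 (0.60), the small subunit of the 19S lid that the naming rule misses. By the adjusted p alone 11 were higher and 1 lower with TNF, against 19.9% and 19.7% of all genes. With GM-CSF edgeR called 0 with the fold limit. Without it 9 were higher, among them the proteasome deubiquitinase Usp14 (0.52), and 2 lower, against 12.1% and 13.4% of all genes. At an unadjusted p under 0.05 there were 12 higher and 2 lower. In adult microglia after LPS 3 of 21 were called higher and 2 lower, against 14.4% and 13.0% of all genes. Those higher included Rps27a (0.96), which encodes ubiquitin fused to a ribosomal protein, and the shuttle Ubqln4 (0.62). Those lower included Akirin2 (-0.95), which is known to bring proteasomes into the nucleus. By the adjusted p alone 13 were higher and 3 lower in adult microglia, against 26.7% and 24.9% of all genes. In brain tissue edgeR called 0 of 20, with 1 higher and 3 lower at an unadjusted p under 0.05, and the largest change was -0.21 for Ubqln4.

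Of the low or uncertain members, Psmb11 was at or near 0 everywhere, at most 0.897 CPM, and Psma8 reached at most 8.89 CPM with log2 fold changes of 0.02 for TNF, 0.10 for GM-CSF and 0.13 for LPS, none past the test. Psme2b is a near copy of Psme2, and its level depended on the data set: 3.35 ± 0.718 CPM in slice microglia in medium, where whole reads were counted, and 40.9 ± 1.48 CPM in adult PBS microglia, where estimated counts were deposited. Its log2 fold changes were 0.93 with TNF (adjusted p = 0.000294), -0.12 with GM-CSF, -0.45 in adult microglia (adjusted p = 0.000770), opposite to Psme2, and 0.48 in brain tissue, and reads shared between the copies make these values uncertain. Psmc3ip, which is no proteasome component, was called in adult microglia alone of the 4 treatments, from 2.01, 2.23, 2.58 and 2.90 CPM with PBS to 4.08, 4.83, 7.57 and 8.63 CPM with LPS (log2 fold change 1.37, SE 0.27, adjusted p = 0.00123), and it shares 385 exon bases with Mlx on the opposite strand.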

How the data were processed

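RNA-seq of sorted microglia (SMART-Seq v4 with Nextera XT libraries) and of brain tissue (TruSeq libraries) was used. For slice microglia the authors deposited raw read counts per gene, made with STAR 2.7.0a and featureCounts of Subread 1.6.4 against mm10 per the submitters' processing notes. For adult microglia and brain tissue the authors deposited estimated counts per gene, which were rounded to whole numbers; aligner and counter: not given in the sources used here. Groups came from the labels. Spike-in rows, all at 0, entered neither library sizes nor tests.

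Each data set was filtered (filterByExpr, at least 10 counts in the smallest group and 15 in total), scaled by TMM and fitted with edgeR 4.0.16 (glmQLFit with robust dispersion, R 4.3.3), the 29 slice libraries in 1 fit, and p-values were adjusted over all genes tested by Benjamini-Hochberg. The difference of the LPS effects is the interaction term of a fit over 16 libraries. Ratios of 2 genes used log2 of counts plus 0.5. No pair of replicates agreed within sampling noise. The procedure was tested on simulated data. Alternatives were other scalings and filters, DESeq2 1.42.0, limma-voom (limma 3.58.1), the replicate number as a block, the title codes, the groups compared alone, and leaving out each library. Members and gene lists were chosen with earlier results of these data known. All immune subunits, their counterparts and activators were named in every comparison, and of the other classes the called members (at most 6 per class) or else the extremes. Further members and list genes (beyond the 4 of smallest p per list) were named after their values were seen. Lengths are those of 1 principal transcript per gene, and promoter windows came from RefSeq. Some genes of the related lists are not reported here.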

Additional observations from a re-analysis of the deposited data

Results flagged for a closer look

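Single libraries stood far from their group in 4 of 66 checks of groups of 4 to 10 libraries, a test that chance alone passes in about 1 in 20 groups. Psmb9 was at 49.8 CPM in adult LPS replicate 2, where the other 3 libraries held 58.3 to 59.0 CPM. In the same library the log2 count ratio of Psmb9 to Psmb6 was -1.37, against -1.11 to -1.06 in the others. Without that library the difference of this ratio between LPS and PBS was -0.37 instead of -0.44. Psme1 was at 194 CPM in slice GM-CSF replicate 1, against 163 to 176 CPM in the other 8, and at 32.0 CPM in brain LPS replicate 4, against 28.5 to 29.1 CPM in the other 3.

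In edgeR's interaction test 9 of 51 members passed the adjusted p and the fold limit, where 9.1% of all genes were called higher and 10.6% lower. That count is a share near that of all genes called in either direction. By the adjusted p alone 30 members were higher and 2 lower. The value tested is the LPS effect in adult microglia minus that in brain tissue. On the log2 scale it was -1.74 for Psmb8 (adjusted p = 8.76e-07) and -0.92 for Psmb9 (0.00155). It was 0.69 for Psmd1, 0.65 for Psmd2, 0.60 for Psmd12, 0.63 for Psmd14, 0.59 for Psmg2, 0.99 for Psmg4 and 1.57 for Psmc3ip, with adjusted p-values from 9.50e-06 for Psmd2 to 0.0116 for Psmg2. The controls were PBS in one data set and no injection in the other, and the kits differed, so that these cannot be told apart from the tissue.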

How the results depend on the processing

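The counts of members called depend most on the fold limit. Without it, 43 members were called with TNF, 25 with GM-CSF, 34 for TNF against GM-CSF, 39 with LPS in adult microglia, 2 in brain tissue and 32 for the difference of the LPS effects. Leaving out 1 library at a time gave 24 to 25, 0 to 2, 8 to 9, 5 to 9, 1 to 1 and 7 to 11. The GM-CSF count was 0 without GM-CSF replicate 5, medium replicate 4 or medium replicate 8, and 2 without medium replicate 6, and it was 3 within the title codes 1A and 1B (Psmg1, Psmg2 and Psmc3ip). Within those codes the GM-CSF difference of the Psmb9 to Psmb6 ratio was -0.13 (exact p = 0.457). With a library left out of 4 against 4, the exact test cannot pass the threshold (smallest p 0.0571), and the ratio differences then ranged from -0.33 to -0.20 for Psmb8 to Psmb5 and from -0.49 to -0.37 for Psmb9 to Psmb6 in adult microglia, and from 1.80 to 2.05 for Psmb8 to Psmb5 and from 0.25 to 0.31 for Psmb10 to Psmb7 in brain tissue. With the title code as a covariate 25, 1 and 9 members were called in the 3 slice comparisons. Psmb5 with TNF fell to 0.57 within the codes 2A and 2B, Psmb6 for TNF against GM-CSF to 0.56 with total counts and Psme1 in adult microglia to 0.56 without LPS replicate 1, each below the fold limit. Other called members crossed that limit too. With TNF these were Psma3, Psmb2 and Psmc4 (total counts, codes 2A and 2B), Psmb3 (total counts), Psmc6 (8 of 31 alternatives, among them leaving out medium replicate 1, 2 or 3 or TNF replicate 7, 9 or 11) and Psmd3 (9 of 31, among them medium replicate 7, 8 or 9 and TNF replicate 1, 3, 8 or 10), while Psme2b lost its adjusted p within the codes 1A and 1B. In adult microglia they were Psmd2 (lost without LPS replicate 1 or 4 or PBS replicate 3 or 4, and with other scalings and filters) and Psmd12 (without LPS replicate 3 or 4 or PBS replicate 2, and without the low-count filter). For the difference of the LPS effects they were Psmd12, Psmd14 (without PBS replicate 1) and Psmg2. For GM-CSF the adjusted p of Psmb5 and Psmc6 was under 0.05 in 16 of 29 alternatives each. The brain counts of Psmb8 and Psmb9 limit their precision.

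Replicate numbers were not taken to pair the samples, since the correlations did not all pass 0.1: those of deviations between libraries with the same number ran from 0.041 to 0.184 for medium and TNF, from 0.017 to 0.111 for medium and GM-CSF, from -0.041 to 0.128 for TNF and GM-CSF, from -0.033 to 0.021 for adult PBS and LPS, and from -0.078 to 0.043 for the 2 brain groups. The mean was 0.108 for medium and TNF libraries with the same number against -0.00981 with different numbers, 0.0643 against -0.00732 for medium and GM-CSF, and 0.0411 against -0.0036 for TNF and GM-CSF. Between groups, libraries of the same title code had a mean of 0.0771 and those of different codes -0.0254. With the replicate number as a block, 24, 1, 8, 7, 1 and 8 members were called, in the order above.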
